A study of Mus musculus with 11 samples.

Results

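Transcript levels of 9 enzymes that make serine, split glycine, carry folate-bound carbon units and break down cystathionine were compared in cardiac fibroblasts of control and Pw1 conditional knockout (CKO) hearts. The 9 genes were Psat1, Psph, Gldc, Shmt2, Mthfd1, Mthfs, Aldh1l1, Atic and Cth. They were chosen by name for their place in these pathways, with earlier results of these data known. They are 9 of the 1293 genes with complete rows that were analysed, and of the 1141 with a value in every library used. The fibroblasts came from the injured left ventricle of mouse hearts 3 days after myocardial infarction, and poly(A)-selected RNA was sequenced. Pw1, also called Peg3, is an imprinted gene that encodes a zinc finger protein. There were 6 control and 5 CKO libraries in a pair of label sets. In set 1, controls 1 to 3 carried the genotype label wild type, Pw1fl/+ or Pw1fl/fl, so an individual control was not tied to one of these genotypes, and CKO 1 to 3 were Pdgfra-Cre;Pw1fl/fl. In set 2, controls 4 to 6 were Pw1 fl/fl and the 2 remaining CKO libraries were PDGFRa Cre+;Pw1 fl/fl. The values of these 2 could be tied to the CKO group but to no replicate number. They are given as CKO a and b and were placed in set 2 by elimination. All libraries shared the infarction. The deletion was driven by Pdgfra, a gene expressed by fibroblasts and other mesenchymal cells. Age, sex and strain background are not given in the sources used here, nor is it stated that each library came from a separate mouse, so the p-values measure the spread between these libraries only. The study asked how Pw1 acts on extracellular matrix genes of these cells.

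Serine is made from a glycolytic intermediate by 3 enzymes in turn, of which PSAT1 and PSPH carry out the later steps. SHMT2 then moves a carbon from serine to tetrahydrofolate in mitochondria and leaves glycine, which the glycine cleavage system, with GLDC as its decarboxylase, can break down further. The folate-bound carbon feeds the synthesis of purines and thymidylate and the remethylation of homocysteine to methionine. Transsulfuration diverts homocysteine to cystathionine and on to cysteine, the building block of glutathione, and CTH (cystathionine gamma-lyase) is its last enzyme. In fibroblasts, serine and glycine are also substrates of collagen, in which glycine is the most frequent residue.

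Depth was even within the controls. Totals recovered from the ratio of deposited counts to deposited FPKM (fragments per kilobase of transcript, per library size) were 20327046 to 20613524 reads in controls and 20312535 to 20562630 in CKO 1 to 3. For CKO a and b no FPKM was used, and totals of about 18384351 and 18651917 were estimated from their reads on the analysed genes and the mean share of such reads in CKO 1 to 3. The genes analysed held 535022 to 635118 of these reads per library. In the CKO libraries the reads lay on shorter transcripts. The mean effective length, which is the transcript length open to a read's start, was 1540 to 1675 nt in CKO 1 to 3 and 2167 to 2294 nt in controls. The top 10 genes by count held 21.8 to 25.4% of the analysed reads in CKO 1 to 3, 30.6 and 31.6% in CKO b and a, and 15.2 to 16.2% in controls. The deleted gene was not analysed here, and neither was any of 10 fibroblast markers listed for a check of the cell type (Col1a1, Pdgfra and Dcn among them), so neither label could be checked. Of the markers of other cells that were present, erythroid Hbb-bs was at 1.48 to 3.30 CPM in controls and 9.04 to 30.0 in CKO libraries, and Hbb-bt at 0 to 0.530 and 0.568 to 1.83. CPM, here and below, is the read count over the library size in units of 1e+06 reads, with sizes scaled by edgeR's TMM method. The monocyte marker Ly6c2 was at 57.4 to 77.3 CPM in controls and 78.2 to 224 in CKO libraries. Its log2 change under TMM was 1.01 (adjusted p = 0.00130, edgeR), with 0.46 in set 1 and 1.68 in set 2. On the recovered totals, which leave out CKO a and b, it was 0.17 (adjusted p = 0.241, edgeR). With the trend on transcript length removed in all 11 libraries, as described below, it was -0.22 (adjusted p = 0.119, edgeR). Its rise thus depended on the scaling and differed in size between the sets. Markers of dividing cells were lower in CKO libraries, Cenpf at 1.71 to 2.86 CPM against 9.39 to 13.0 and Cdc20 at 12.3 to 16.0 against 18.8 to 20.9. Epicardial Upk3b had 1 to 15 reads and was not tested, and no marker listed for cardiomyocytes, endothelial cells, lymphocytes, mural cells or neutrophils was among the genes analysed. The part of these cells in the results below was not tested.

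With edgeR's quasi-likelihood test and Benjamini-Hochberg adjustment over 769 tested genes, 5 of the 9 enzymes were higher and 2 were lower in CKO libraries at an adjusted p under 0.05. Psat1, Psph, Shmt2, Mthfs and Aldh1l1 were higher, Mthfd1 and Cth were lower, and Gldc and Atic did not pass. Of all tested genes, 71.5% passed, 34.1% higher and 37.5% lower, so a call was the usual outcome for a gene in these data and 7 of 9 is near that share. The control and CKO ranges did not overlap for 6 of the enzymes (Psat1, Psph, Mthfd1, Mthfs, Aldh1l1 and Cth), against 56.4% of all tested genes. The median log2 change was 0.26 over the 9 enzymes and -0.07 over all tested genes, and the median size of change was 0.44 and 0.79. Only Cth and Mthfs changed by more than that median size. Which of the other enzymes counted as higher or lower depended on how the libraries were scaled, as given beside each and further below. Because the samples are bulk RNA, fewer cells that express a gene and less of its RNA per cell cannot be told apart.

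**Figure D1:**
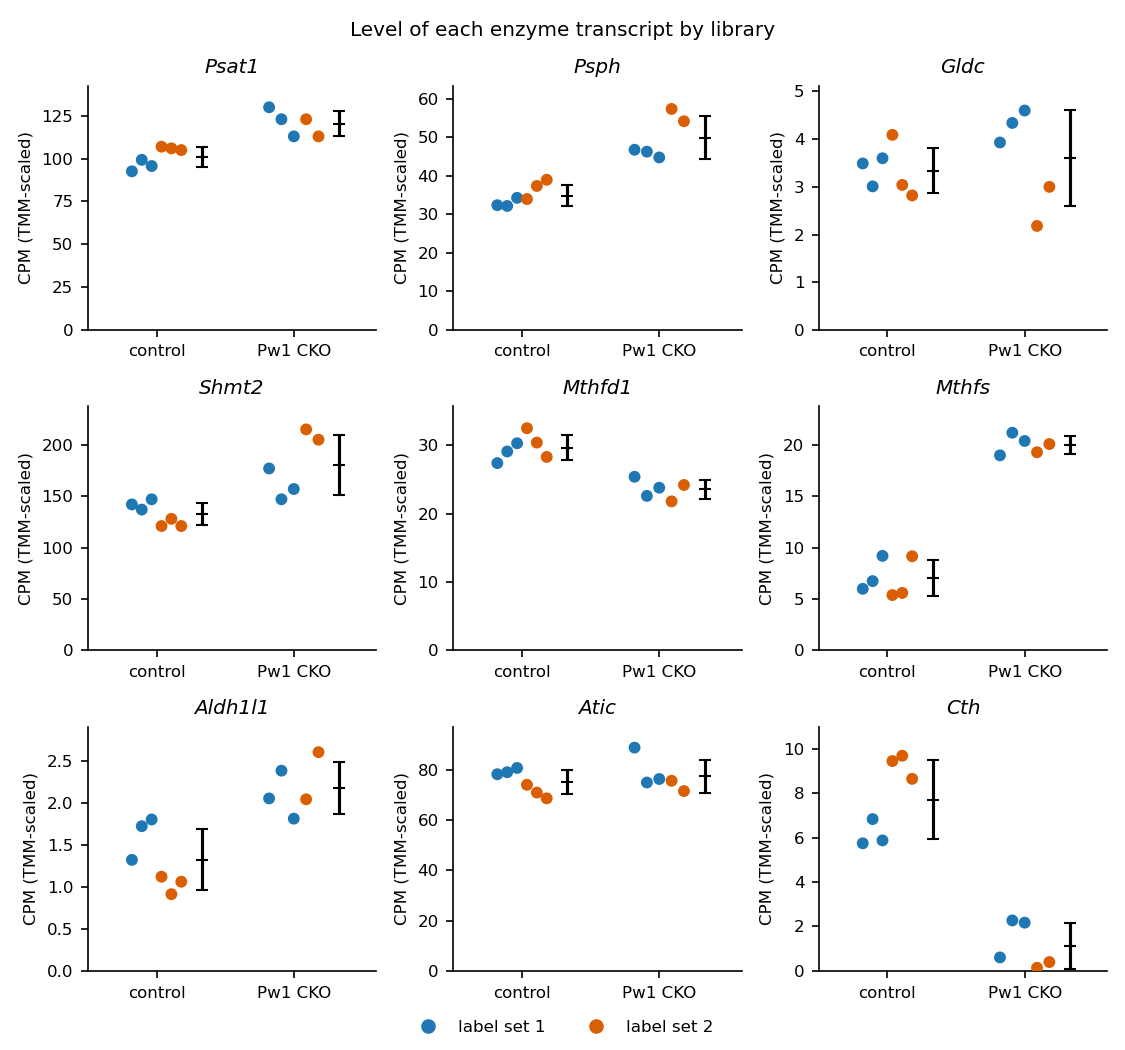
Level of each enzyme's transcript in CPM on TMM-scaled library sizes (vertical axes, starting at 0) in 6 control and 5 CKO libraries, 1 point per library, coloured by label set, with the group mean and SD as a black bar. The CKO points of Cth lie near 0 (0.141 to 2.27 CPM) and those of Mthfs sit between 19.0 and 21.2, both apart from every control, while those of Gldc, Shmt2 and Atic overlap the controls.

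The first pair of enzymes acts in serine synthesis. Psat1 encodes phosphoserine aminotransferase, which makes phosphoserine (gene on chromosome 19, 15905123 to 15925059, GRCm38). Its level was 92.6 CPM in the lowest control, 102 in the median and 107 in the highest. It was 130, 123 and 113 CPM in CKO 1, 2 and 3 and 123 and 113 in CKO a and b. Every CKO library was above every control, the nearest at 113 against 107 CPM. The mean was 101 ± 5.96 (SD, n = 6) in controls and 120 ± 7.61 (SD, n = 5) in CKO libraries, a 1.20-fold difference (log2 change 0.26, SE 0.06, adjusted p = 0.00329, edgeR quasi-likelihood test).

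Psph encodes phosphoserine phosphatase, which releases serine in the final step (chromosome 5, 129765558 to 129787443). It ranged from 32.2 CPM through a median of 34.2 to 39.0 in controls. The CKO libraries had 46.8, 46.3, 44.8, 57.4 and 54.2 CPM, in the order 1, 2, 3, a, b, all above the controls and the highest in a and b. The mean rose from 34.9 ± 2.75 (SD, n = 6) to 49.9 ± 5.55 (SD, n = 5), or 1.45-fold (log2 change 0.53, SE 0.06, adjusted p = 1.73e-05, edgeR). The genes whose log2 CPM followed Psph most closely over the 11 libraries, of 580 candidates, were Brk1 (Pearson r 0.985) and Jkamp (r 0.980).

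The change of a gene varied with the length of its transcript. Of 51 tested genes under 1000 nt, 37 had a change above 0 (median 1.47), and of 199 over 4000 nt, 171 had a change below 0 (median -0.74). When each library's trend of level on effective length was removed by a robust loess curve before the same test, the median change over all genes was -0.01 and 69.9% of 737 genes still passed. The change of Psat1 shrank to 0.05 on the log2 scale (adjusted p = 0.439, edgeR), and that of Psph turned to -0.19 (adjusted p = 0.00901, edgeR). Scaling by the recovered library totals in the 9 libraries that have them, which lowers the median of all genes to -0.32, gave 0.07 for Psat1 and 0.20 for Psph. On that scale Psph passed (adjusted p = 0.0254, edgeR) and Psat1 did not (adjusted p = 0.315, edgeR). On log2(TPM + 1) in those 9 libraries, described further below, the median of all genes was -0.60. There Psat1 was called lower, at -0.39 (adjusted p = 4.93e-04, limma), and Psph was at -0.05 (adjusted p = 0.455, limma). With a least-squares in place of a robust curve, an alternative chosen after the data were seen that leaves the median of all genes at 0.11, Psat1 was at 0.23 and passed (adjusted p = 0.00811, edgeR). Psph was then at -0.01 and did not pass (adjusted p = 0.909, edgeR), so both calls depended on the form of the length curve.

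The promoters of Psat1 and Shmt2 are shown because both genes were among those called higher and each carries a different motif next to its start. In the RefSeq promoter table of GRCm38.p6, which covers 250 bases before to 50 after each start, 8 of the 9 enzymes had an entry and Cth had none. The first sequence is the 100 bases before the Psat1 start at chr19:15925060-15925159, minus strand, with 2 copies of CCAAT, the motif of nuclear factor Y, in capitals. The second is the 100 bases before the Shmt2 start at chr10:127522445-127522544, minus strand, with the core GCATGCG of the NRF1 motif in capitals, where its matches on both strands overlap by all but 1 base each.
Psat1: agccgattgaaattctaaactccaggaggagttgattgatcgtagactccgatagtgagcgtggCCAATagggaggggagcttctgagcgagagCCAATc
Shmt2: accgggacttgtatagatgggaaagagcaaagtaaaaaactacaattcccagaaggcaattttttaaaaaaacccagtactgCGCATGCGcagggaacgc
Searched on both strands, CCAAT was present in 37.4% of all 32851 promoter windows and in windows of 6 of the enzymes: Psat1, Psph, Gldc, Mthfd1, Aldh1l1 and Atic. The letters GCATGCG were in 3.58% of windows and, among the enzymes, in that of Shmt2 alone. TGATGNAA, the core of the amino acid response element, was in 3.97% of windows, and TATAAA in 13.6%; neither was in a window of any of the 8 enzymes. The enzymes with CCAAT include some called higher, 1 called lower (Mthfd1) and both that did not pass.

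Glycine is handled by the next pair. Gldc encodes the glycine decarboxylase of the mitochondrial glycine cleavage system (chromosome 19, 30098441 to 30175441). It was scarce, with 31 to 95 reads per library. Controls ran from 2.82 through 3.26 to 4.09 CPM, and CKO 1, 2, 3, a and b had 3.93, 4.34, 4.60, 2.18 and 3.00. The CKO libraries of set 1 were near or above the upper end of the controls and those of set 2 below their median. The pooled change was 0.06 on the log2 scale with an SE of 0.17 (adjusted p = 0.785, edgeR). Without CKO a and b it was 0.41 (adjusted p = 0.0482), and with the length trend removed in all 11 libraries it was 0.45 (adjusted p = 0.0209), both from the edgeR test.

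Shmt2, mitochondrial serine hydroxymethyltransferase (chromosome 10, 127517123 to 127522444), had the highest level of the 9 enzymes. Controls had 121 CPM at the lowest, 132 at the median and 147 at the highest. CKO 1, 2 and 3 had 177, 147 and 157 CPM and CKO a and b had 215 and 205. CKO a and b stood above all other libraries, while CKO 2 was level with the highest control. The mean was 133 ± 11.0 (SD, n = 6) in controls and 180 ± 29.6 (SD, n = 5) in CKO libraries, or 1.36-fold (log2 change 0.44, SE 0.11, adjusted p = 0.00337, edgeR). The change was 0.30 with the length trend removed (adjusted p = 0.0304, edgeR), and 0.46 with the least-squares curve (adjusted p = 0.00300, edgeR). It was -0.10 on the recovered totals of 9 libraries (adjusted p = 0.169, edgeR). TMM in those same 9 libraries gave 0.23 (adjusted p = 0.0226, edgeR). On log2(TPM + 1) in these libraries Shmt2 was called lower, at -0.56 (adjusted p = 2.50e-05, limma). The closest genes in pattern over the 11 libraries were Adcy4 (r 0.984) and Csnk1g2 (r 0.979).

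The enzymes called differed with the scaling and the libraries used. With the length trend removed, 3 were higher (Gldc, Shmt2 and Aldh1l1) and 2 lower (Psph and Cth), where 35.4% of all genes were higher and 34.5% lower. On the recovered totals of 9 libraries, 2 were higher (Psph and Mthfs) and 3 lower (Mthfd1, Atic and Cth), with 67.0% of 802 genes called, 22.1% higher and 44.9% lower. Under TMM in those same 9 libraries, 5 were higher (Psat1, Psph, Gldc, Shmt2 and Mthfs) and 2 lower (Mthfd1 and Cth), with 66.8% of genes called, 33.9% higher and 32.9% lower. Cth was lower in each of these. Mthfs did not pass with the length trend removed by the robust curve and passed with the least-squares one, which gave 5 enzymes higher and 1 lower (Cth). Of all 737 genes in that least-squares fit, 528 were called.

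**Figure D2:**
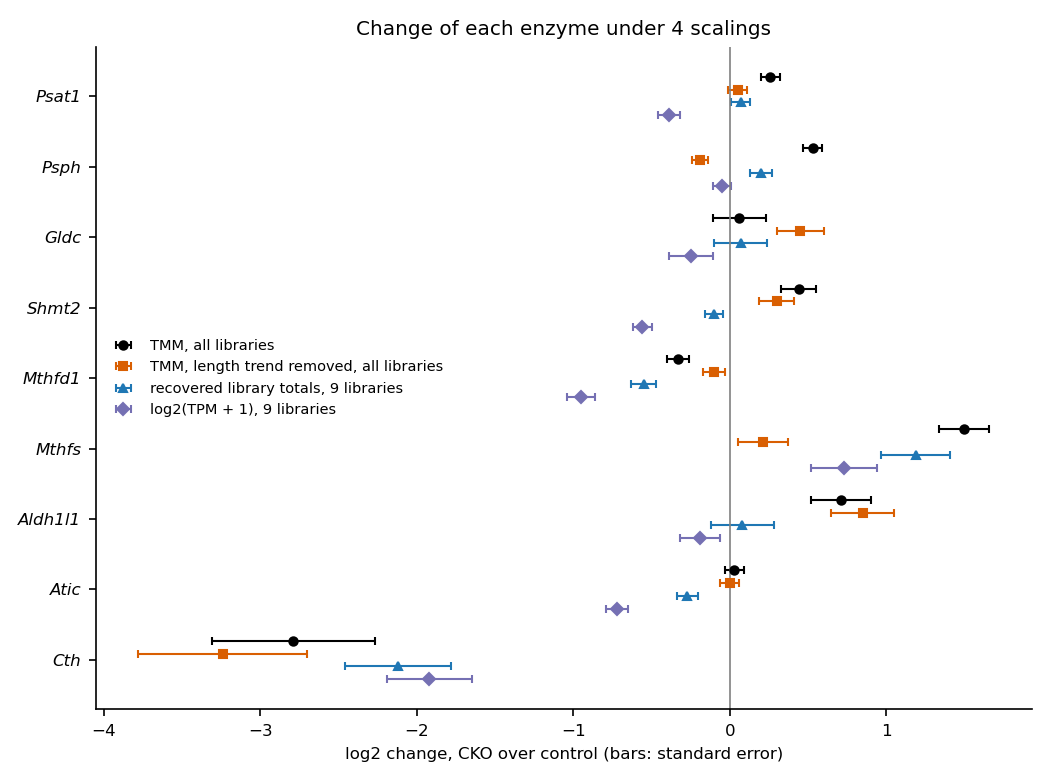
Log2 change of each enzyme, CKO over control, with its standard error (horizontal axis), under TMM scaling, TMM with the length trend removed, recovered library totals and log2(TPM + 1), the latter pair in 9 libraries. Cth is on the left of 0 in all 4 (-1.92 to -3.24) and Mthfs on the right (0.21 to 1.50), while the other enzymes apart from Mthfd1 have values on both sides of 0.

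Mthfd1, Aldh1l1 and Mthfs interconvert folate-bound carbon units. Mthfd1 encodes the cytosolic trifunctional enzyme that interconverts formyl-, methenyl- and methylene-tetrahydrofolate (chromosome 12, 76254406 to 76319820). Controls lay at 27.4 CPM, 29.7 and 32.5 (lowest, median and highest), and CKO 1, 2, 3, a and b at 25.4, 22.6, 23.8, 21.8 and 24.2. All CKO libraries were below all controls. The mean fell from 29.7 ± 1.81 (SD, n = 6) to 23.6 ± 1.41 CPM (SD, n = 5), so that controls were 1.26-fold higher (log2 change -0.33, SE 0.07, adjusted p = 0.00139, edgeR). Mthfd1 has a long transcript, with an effective length of 3324 nt, and with the length trend removed its change was -0.10 (adjusted p = 0.219, edgeR). On the recovered totals it was -0.55 (adjusted p = 2.67e-04, edgeR).

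Aldh1l1 encodes cytosolic 10-formyltetrahydrofolate dehydrogenase, which removes the formyl carbon as carbon dioxide (chromosome 6, 90550768 to 90599171). It was the scarcest of the enzymes, with 21 to 46 reads per library. Controls had 0.912, 1.22 and 1.80 CPM at the lowest, median and highest, and CKO 1, 2, 3, a and b had 2.05, 2.38, 1.81, 2.04 and 2.60. The groups did not overlap, though CKO 3 lay next to the highest control. The mean was 1.32 ± 0.364 (SD, n = 6) and 2.17 ± 0.311 CPM (SD, n = 5), or 1.64-fold (log2 change 0.71, SE 0.19, adjusted p = 0.00623, edgeR). Aldh1l1 is long (3100 nt), and its change was 0.85 with the length trend removed (adjusted p = 0.00327, edgeR). It was 0.08 on the recovered totals without CKO a and b (adjusted p = 0.718, edgeR). TMM in those same 9 libraries gave 0.42 (adjusted p = 0.0968, edgeR), and log2(TPM + 1) gave -0.19 (adjusted p = 0.187, limma). Of its exon bases 11% are shared with Gm15756 on the opposite strand, and whether counting used strand is not stated.

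Mthfs encodes methenyltetrahydrofolate synthetase, which returns 5-formyltetrahydrofolate, a storage form, to the active pool (chromosome 9, 89211190 to 89240225). Controls had 5.39 CPM at the lowest, 6.37 at the median and 9.21 at the highest. CKO 1, 2, 3, a and b had 19.0, 21.2, 20.4, 19.3 and 20.1 CPM. The CKO libraries were close to each other and all far above the highest control. The mean was 7.02 ± 1.74 (SD, n = 6) and 20.0 ± 0.884 CPM (SD, n = 5), or 2.84-fold (log2 change 1.50, SE 0.16, adjusted p = 9.15e-06, edgeR). Its pattern over the libraries was most like that of Sap18b (r 0.959) and Wdr92 (r 0.953).

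Mthfs has a near-identical copy, Mthfsl, on the same chromosome, which was also counted. Their GENCODE M21 transcripts Mthfs-201 and Mthfsl-201 align over 801 bases without a gap and are 99.4% identical, with 5 differing bases and a longest run without a difference of 327 bases. The sequences below, 57 coding bases around the first of these differences, are shown because this is all that tells the copies apart in that stretch. The differing base is in capitals and is A206G, counted from 1 at the 5′ end of the transcript (GRCm38, chr9:89215231-89215287, plus strand, for Mthfs and chr9:88715671-88715727, minus strand, for Mthfsl).
Mthfs: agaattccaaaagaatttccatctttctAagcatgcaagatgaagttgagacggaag
Mthfsl: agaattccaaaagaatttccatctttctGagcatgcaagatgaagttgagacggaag
Reads that cover none of the differences are assigned to one copy or the other only by estimation, so the split between them is uncertain. The counted Mthfsl, with an effective length of 1516 nt, was longer than the 801 bases of Mthfsl-201. Its further sequence was not compared with Mthfs. The estimation gave Mthfs 11.3 to 17.7% of the reads of both copies in controls and 19.6 to 25.8% in CKO libraries. Mthfsl itself had 40.1 to 44.4 CPM in controls and 59.7, 61.1, 64.0, 79.5 and 68.1 in CKO 1, 2, 3, a and b, again without overlap (log2 change 0.62, SE 0.08, adjusted p = 3.07e-05, edgeR). The sum of both copies does not depend on the split between them. A further gene, Gm29094, which was not analysed here, is identical to Mthfs over 264 bases and could also share reads with it. The sum of Mthfs and Mthfsl was 50.3 ± 2.73 CPM in controls (SD, n = 6) and 86.5 ± 7.70 in CKO libraries (SD, n = 5). This was a 1.72-fold difference (log2 change 0.79, SE 0.07, adjusted p = 3.72e-06, edgeR), less than the 2.84-fold of Mthfs alone. On the recovered totals of 9 libraries the sum changed by 0.39 (adjusted p = 0.00105, edgeR). Mthfs also has the shortest effective length of the enzymes, 724 nt. With the length trend removed by the robust curve the change of Mthfs was 0.21 (adjusted p = 0.269, edgeR), and that of Mthfsl, at 1516 nt, was 0.00. With the least-squares curve, Mthfs was at 0.56 and passed (adjusted p = 0.0132, edgeR).

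Atic encodes the bifunctional enzyme of the last steps of purine synthesis, which takes up a formyl group from folate (chromosome 1, 71557156 to 71579403). Controls had 68.7, 76.2 and 80.8 CPM at the lowest, median and highest. CKO 1 had 88.9 CPM, and CKO 2, 3, a and b had 75.0, 76.4, 75.7 and 71.6. All CKO libraries other than CKO 1 lay within the range of the controls. The log2 change was 0.03 with an SE of 0.06 (adjusted p = 0.687, edgeR), and with the length trend removed it was 0.00. On the recovered totals it was -0.27 (adjusted p = 0.00504, edgeR), close to the median of all genes on that scale.

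**Figure D3:**
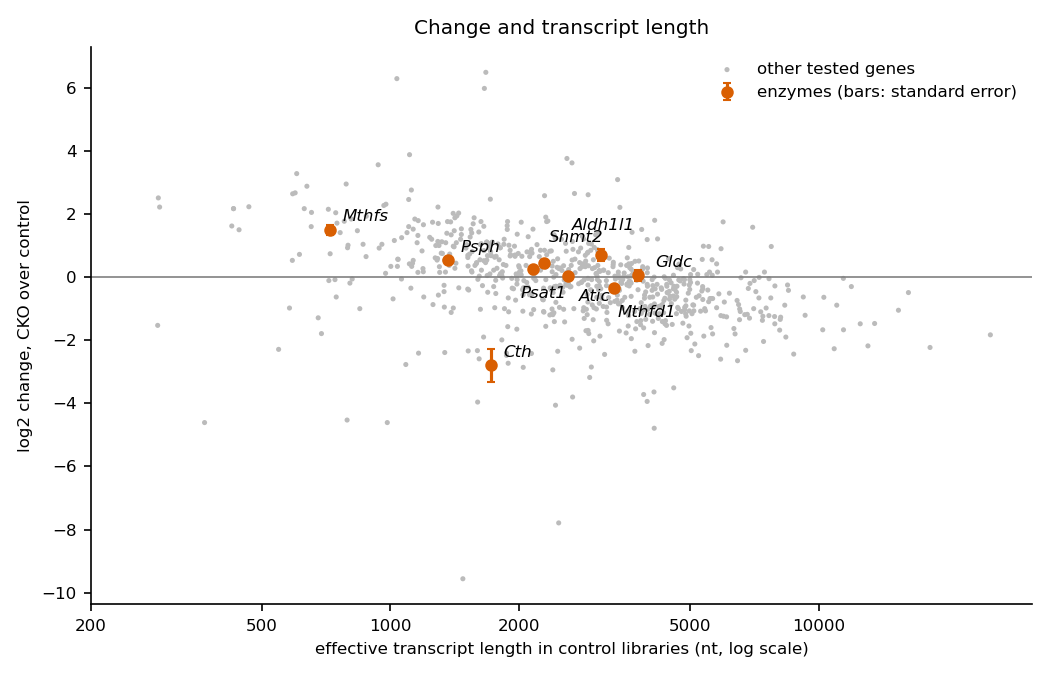
Log2 change of each tested gene, CKO over control, under TMM scaling (vertical axis) against its effective length in control libraries (nt, log axis), with the enzymes as named points and their standard errors. Short genes lie mostly above 0 and long genes mostly below; Mthfs (724 nt, 1.50), Psph (1360 nt, 0.53) and Mthfd1 (3324 nt, -0.33) lie within that band, and Cth (1716 nt, -2.79) far below it.

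Cth had the largest change. Cystathionine gamma-lyase splits cystathionine to cysteine and is also a source of hydrogen sulfide in heart and vessels (chromosome 3, 157894248 to 157925081). Controls had 5.74 CPM at the lowest, 7.74 at the median and 9.68 at the highest, from 129.97 to 222.96 expected reads per library. CKO 1 had 0.608 CPM, CKO 2 had 2.27, CKO 3 had 2.17, CKO a had 0.141 and CKO b had 0.400. The highest CKO library was below the lowest control, and CKO 1, a and b were well below CKO 2 and 3. The mean was 7.70 ± 1.78 (SD, n = 6) in controls and 1.12 ± 1.02 CPM (SD, n = 5) in CKO libraries. The log2 change was -2.79 (SE 0.52, adjusted p = 5.82e-04, edgeR), so controls were 6.89-fold higher, and 33 of the 769 tested genes changed by more. The CKO counts behind it were small, at 11, 43.97 and 42.02 reads in CKO 1, 2 and 3, 2 in CKO a and 5.61 in CKO b.

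Unlike the other changes, that of Cth kept its sign and its call under every scaling tried. It was -3.24 with the length trend removed (adjusted p = 3.88e-04, edgeR). On the recovered totals of 9 libraries it was -2.12 (adjusted p = 4.23e-04, edgeR), and on log2(TPM + 1) it was -1.92 (adjusted p = 1.08e-04, limma). No exon base of Cth is shared with another annotated gene and no other gene's transcript was at least 95% identical to it over 200 bases. Among the genes with the most similar pattern over the 11 libraries was Zmym6 (r 0.991), a long transcript of 4550 nt that also fell in CKO libraries, by 1.50 on the log2 scale. Across the enzymes, log2 CPM of Cth ran opposite to that of Shmt2 (r -0.971 over 11 libraries, which share the group and set differences).

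Ratios between enzymes of the same library do not depend on the library's scaling, though they still carry length. Per 100 reads of Psat1 there were 6.13 to 9.17 reads of Cth in controls and 0.114 to 1.92 in CKO libraries. Per 100 reads of Mthfd1 there were 16.6 to 32.4 reads of Mthfs in controls and 75.1 to 94.1 in CKO libraries, and 3 to 5.93 reads of Aldh1l1 against 7.6 to 10.7. Per 100 reads of Atic there were 163 to 182 reads of Shmt2 in controls and 196 to 286 in CKO libraries. These 4 ratios did not overlap between groups, which for the first 3 follows from the levels already given, since their enzymes did not overlap and moved in opposite directions. The ratio of Psph to Psat1, which act in successive steps, did overlap, with 31.7 to 37.2 reads per 100 in controls and 35.9 to 48.1 in CKO libraries, as did that of Shmt2 to Psat1 (113 to 154 and 119 to 182). These ratios are descriptions of chosen pairs with no test, and how often ratios of other gene pairs do not overlap was not counted.

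Levels between genes were compared in TPM, a share of each library's transcripts that is corrected for their length, in the 9 libraries whose TPM could be used. In controls (n = 6), Shmt2 was highest at 145 ± 12.6 TPM (SD), followed by Psat1 at 117 ± 7.84, Atic at 72.4 ± 5.78 and Psph at 64.0 ± 4.46. Mthfs at 24.2 ± 5.80, Mthfd1 at 22.3 ± 1.83, Cth at 11.2 ± 2.85, Gldc at 2.21 ± 0.374 and Aldh1l1 at 1.07 ± 0.303 came after. The library ranges of 3 neighbouring pairs overlapped, namely Shmt2 and Psat1, Atic and Psph, and Mthfs and Mthfd1. The other neighbours were apart. Shmt2 was above 97.7% of the analysed genes and Aldh1l1 above 42.0%. In CKO 1 to 3, Psph and Atic exchanged places, Psph at 58.1 ± 2.70 TPM and Atic at 46.2 ± 0.884 (SD, n = 3), and the order of the others was the same. The library ranges of Mthfs and Mthfd1, which overlapped in controls, were apart there, at 42.3 ± 5.16 and 10.8 ± 0.488 TPM (SD, n = 3). Cth was at 1.73 ± 1.04 TPM there, next to Gldc at 1.71 ± 0.265. TPM is a share of a fixed sum, and with limma on log2(TPM + 1) the median of all genes was -0.60, and of 699 genes 79.0% were called, 13.0% higher and 66.0% lower. On that scale 5 enzymes were lower (Psat1, Shmt2, Mthfd1, Atic and Cth) and Mthfs alone was higher, by 0.73 (adjusted p = 0.00876, limma). Beside the median of all genes, Psat1 at -0.39 was higher, Mthfd1 at -0.95 was lower, and Shmt2 at -0.56 (SE 0.06) was level with it. These distances from the median were not tested.

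Besides the number of reads, the deposited values carry each gene's effective length in each library, which moves when the mix of its transcripts is estimated differently. For Psph it was 1382, 1360, 1368, 1349, 1367 and 1340 nt in controls 1 to 6 and 1147, 1267 and 1164 nt in CKO 1 to 3. All 3 CKO values were below every control, a mean of 1192 ± 65.0 against 1361 ± 14.8 nt (log2 change -0.2016, SE 0.0359, adjusted p = 0.00224, limma over 296 genes). Among those genes, 77.4% differed at an adjusted p under 0.05, mostly by very little, and 14.2% were shorter in CKO libraries by at least 0.1 on the log2 scale. Psph has 8 annotated transcripts of 383 to 2877 nt, so reads were assigned more to short ones in CKO libraries, and 10.4% of its exon bases are shared with Cct6a on the other strand. For Cth the effective length was 1780, 1725, 1768, 1668, 1714 and 1691 nt in controls 1 to 6 and 1593, 1538 and 1469 nt in CKO 1 to 3, which were lower without overlap but rest on few reads and were not tested. Psat1 was at 2156 to 2159 nt in all 9 libraries.

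**Figure D4:**
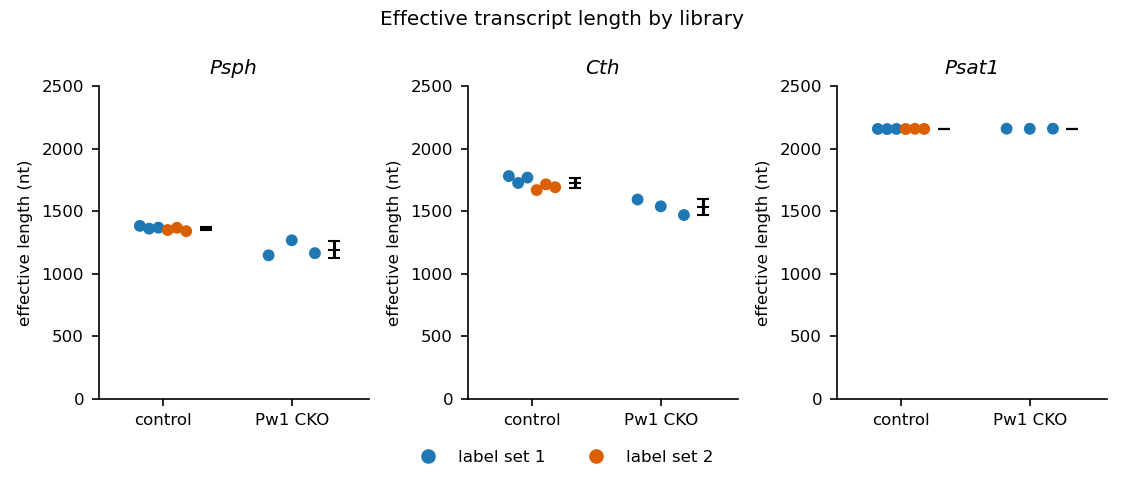
Effective transcript length in nt (vertical axes, starting at 0) of Psph, Cth and Psat1 in the 6 control libraries and CKO 1 to 3, 1 point per library, with the group mean and SD as a black bar. The CKO points lie below the controls for Psph (1147 to 1267 against 1340 to 1382 nt) and Cth (1469 to 1593 against 1668 to 1780 nt), and Psat1 is level.

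Each label set was then compared with its own controls in 1 edgeR fit with a mean for each group and set. The comparison rests on the placement of CKO a and b in set 2, which was made by elimination. In set 1, 65.7% of tested genes passed, 31.9% higher and 33.8% lower, and in set 2, 74.4%, with 35.1% higher and 39.3% lower. The change of Shmt2 was 0.18 (SE 0.07, adjusted p = 0.0478) in set 1 and 0.77 (SE 0.08, adjusted p = 4.56e-06) in set 2. In a fit of set 1 alone it was 0.17 and did not pass (adjusted p = 0.0991, edgeR). The test of the difference itself gave 0.59 (SE 0.11, adjusted p = 0.00180, edgeR). The change of Cth was -1.85 (SE 0.33, adjusted p = 4.87e-04) in set 1 and -5.05 (SE 0.53, adjusted p = 5.86e-06) in set 2, a difference of -3.20 (SE 0.68, adjusted p = 0.00387, edgeR). As scaled reads, Cth in the CKO libraries was 27.8% of the control level in set 1 (97 against 426 reads, exact 95% interval 22 to 34.7%) and 2.96% in set 2 (8 against 638 reads, 1.27 to 5.86%). The intervals cover counting error only. The controls of the sets also differed: Cth was at 5.74, 6.83 and 5.87 CPM in controls 1 to 3 and at 9.44, 9.68 and 8.64 in controls 4 to 6, while Shmt2 was at 142, 137 and 147 and at 121, 128 and 121. The set 2 controls were thus the higher for Cth and the lower for Shmt2, each without overlap. The difference between sets passed for these 2 of the 9 enzymes and for 42.0% of all tested genes.

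The other enzymes did not show a set difference that passed. Psph changed by 0.48 in set 1 and 0.60 in set 2, Mthfd1 by -0.28 and -0.40, and Mthfs by 1.46 and 1.55, each past the threshold in both sets. Psat1 changed by 0.35 in set 1 (adjusted p = 6.29e-04), and its value in set 2 was 0.15 (adjusted p = 0.0748). Aldh1l1 was at 0.36 in set 1 (adjusted p = 0.142) and changed by 1.17 in set 2 (adjusted p = 9.25e-04), with an adjusted p of 0.0590 for the difference, which became 0.0380 with the length trend removed. Gldc had opposite signs, 0.35 in set 1 and -0.35 in set 2, and neither these nor their difference passed (adjusted p = 0.0630). Atic was at 0.01 and 0.05. All p-values here are from the edgeR fit. The CKO libraries of set 2 are the 2 with estimated totals and the larger share of reads in the 10 most abundant genes, and what set them apart cannot be told apart from the set.

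**Figure D5:**
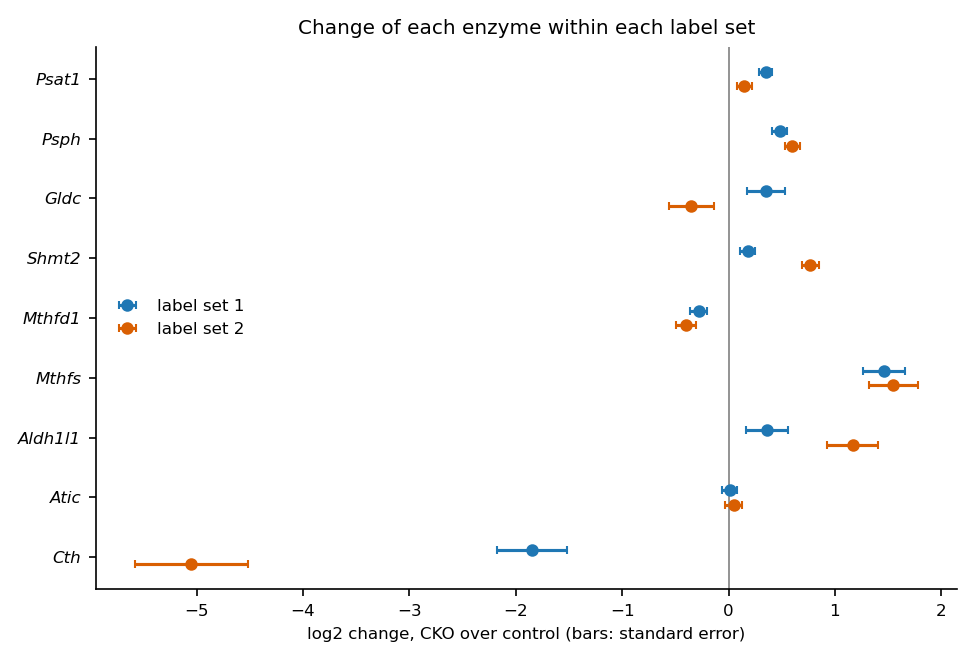
Log2 change of each enzyme, CKO over control, with its standard error (horizontal axis), within label set 1 (3 control and 3 CKO libraries) and label set 2 (3 control and 2 CKO libraries). The values of the sets lie apart for Cth (-1.85 and -5.05) and Shmt2 (0.18 and 0.77), and close together for Psph, Mthfd1, Mthfs and Atic.

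Of the wider pathways, few genes could be followed. Lists of serine and glycine enzymes (13 genes), folate enzymes and carriers (20), the methionine cycle and transsulfuration (20), glutathione synthesis (11), purine and pyrimidine synthesis (24) and the amino acid response (22) held 101 genes besides the 9. Of these, 2 were present and tested, and both were higher, as were 34.1% of all tested genes. Adi1, an enzyme of methionine salvage, rose from 31.6 ± 1.76 CPM (SD, n = 6) to 45.4 ± 2.17 (SD, n = 5) (log2 change 0.52, SE 0.06, adjusted p = 2.89e-05, edgeR), with -0.01 once the length trend was removed. Atf5, a transcription factor of the amino acid and stress response, rose from 63.7 ± 10.8 to 113 ± 8.01 CPM (log2 change 0.81, SE 0.09, adjusted p = 1.73e-05, edgeR), and by 0.32 with the length trend removed (adjusted p = 0.00276, edgeR). On the recovered totals of 9 libraries, Adi1 was at 0.30 (adjusted p = 0.00423, edgeR) and Atf5 at 0.40 (adjusted p = 0.00400, edgeR). Neither passed on log2(TPM + 1), with Adi1 at -0.15 (adjusted p = 0.128, limma) and Atf5 at -0.06 (adjusted p = 0.495, limma). The other listed genes, among them Phgdh, Mthfd2, Cbs and Atf4, were not analysed here.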

How the data were processed

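Expected counts, TPM and FPKM per gene came from a table the authors deposited. The submitters' processing notes name Bowtie2, RSEM, DESeq2 and GRCm38 without roles; the sources used here do not state whether counting used strand. The authors' expected counts (26.3% within 0.001 of a whole number) were rounded. Of 33 columns of values, 29 were used; 4 could not be tied to a sample. The members and lists were chosen with earlier results of these data known.

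Library totals were recovered from count over FPKM in 296 genes with FPKM of at least 5; the absolute level, from 29 genes, has a 95% interval of 18481911 to 21135269 reads for control 1. For CKO a and b, totals were estimated by dividing reads on the analysed genes by the average fraction those genes take in CKO 1, 2 and 3. The main test was edgeR 4.0.16's quasi-likelihood F test in R 4.3.3 (TMM, filterByExpr, label set as a term, 2-sided, Benjamini-Hochberg over all tested genes). Ranges of CPM are on TMM-scaled sizes. The length trend was a loess of degree 1 and span 0.5 per library. TPM, as the authors deposited it, and effective length (count over FPKM and total) were tested with limma 3.58.1. Log2 TPM used a pseudocount of 1 and genes with TPM of at least 1 in 3 libraries, which understates changes of low genes. Copies were sought with BLAST 2.17.0. All 9 members are reported. The genes most like a member are the 2 with the highest Pearson r and no predicted name, printed for 4 members; 1 of these genes is not reported here. The fit was tested on simulated counts. Of 1293 genes with complete rows, 152 had blanks in some library.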

Additional observations from a re-analysis of the deposited data

Results flagged for a closer look

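Among 18 groups of levels, 9 enzymes in controls and in CKO libraries, 1 held a library well away from its fellows, where chance gives about 1 in 20. Atic in CKO 1 stood at 88.9 CPM against 71.6 to 76.4 in the other 4 CKO libraries, a gap of 0.721 of that group's range, past Dixon's limit of 0.71 for 5 samples.

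The difference between the label sets passed for Shmt2 and Cth, 2 of 9 enzymes, and for 42.0% of all tested genes. The controls of the sets also differed without overlap for both genes. The log2 change of set 2 less that of set 1 came to 0.59 for Shmt2 (adjusted p = 0.00180, edgeR) and to -3.20 for Cth (adjusted p = 0.00387, edgeR). The levels of Cth were below those of every control in all 5 CKO libraries, and those of Shmt2 were highest in CKO a and b.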

How the results depend on the processing

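The counts of enzymes called, 5 higher and 2 lower, were the same with DESeq2's size factors, DESeq2's own test, limma-voom, no count filter, no label set term and when each library was left out in turn (5 to 5 higher and 2 to 2 lower, 521 to 564 genes in all, and 2 to 3 enzymes with a set difference). Requiring a count of at least 10 in every library left 1 lower, because Cth was then not tested. Set 1 alone gave 3 higher, without Shmt2 and Aldh1l1. Set 2 alone gave 4 higher, without Psat1 at 0.15 (adjusted p = 0.0775, edgeR), and 2 lower. The replicate block in set 1 gave 3 higher and 1 lower (Cth), with Mthfd1 at -0.28 no longer past the threshold. The deviations of same-numbered libraries correlated at 0.10, 0.06 and 0.23, and those of libraries with unlike numbers at -0.17 to 0.05. Each same-numbered correlation was the highest of its libraries but small. Whether the numbers mark pairs cannot be told from this, and the main test did not take them as pairs. Recovered totals gave 2 higher, log2(TPM + 1) and log2(TPM + 0.1) each 1 higher and 5 lower, and the length correction 3 higher at a span of 0.5 or 0.3. Least-squares loess, chosen after seeing the data, left 5 higher, with Psat1 and Mthfs again among them, and 1 lower. Over all tested genes, 476 were called with the count of at least 10, 499 in set 1 alone, 568 in set 2 alone and 479 with the replicate block. The number of genes tested in these runs is not given here, so these counts are not shares to read the enzymes against. On log2(TPM + 0.1) 548 genes were called. The length correction called 515 at a span of 0.5, 511 at 0.3 and 528 with least squares.

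Changes reversed on recovered totals for Shmt2 (-0.10) and Atic (-0.27). On log2(TPM + 1) they did for Psat1 (-0.39), Psph (-0.05), Shmt2 (-0.56), Aldh1l1 (-0.19) and Atic (-0.72), and on log2(TPM + 0.1) at -0.39, -0.05, -0.56, -0.33 and -0.73. Gldc, at 0.06 in the main test, also changed sign on these scales, to -0.25 and -0.37, and to -0.36 in set 2 alone. None of these values of Gldc passed the threshold. Psph reversed with the length trend removed (-0.19 at span 0.5, -0.23 at span 0.3, -0.01 with least squares), and Mthfd1 with least squares (0.02). Among the alternatives in which it was tested, Cth stayed lower, at -1.80 to -5.05, and Mthfs stayed higher, at 0.21 to 1.62, though not past the threshold with a robust length correction. Leaving out each library gave -2.37 to -3.11 for Cth and -0.17 to -0.25 for the effective length of Psph. Depth limits Cth in CKO a (2 reads), Aldh1l1 and Gldc.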
